A study of Arabidopsis thaliana with 11 samples.

Results

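The Aux/IAA and ARF families carry the transcriptional response to the hormone auxin, and their transcripts were followed in mature roots of *Arabidopsis thaliana*. The members were all 29 Aux/IAA genes and 15 ARF genes (*ARF1* to *ARF11* and *ARF16* to *ARF19*), taken by gene identifier, which made 44 of the 33341 genes in the count files. RNAseq counts were available for 11 samples in 4 groups: 3 of *BRL3ox* roots after 5 days of drought, 3 of WT roots after the same drought, 2 of watered *BRL3ox* roots (labelled replicates 1 and 3) and 3 of watered WT roots. *BRL3ox* is named 35S:BRL3 in the labels and overexpresses the brassinosteroid receptor *BRL3*, as a GFP fusion per the study's methods, from the viral 35S promoter, which is active in most plant cells, and WT is Col-0, with no transgene. All plants spent 7 days on agar and 16 days on soil before the treatment, in which water was withheld from the drought groups while the control groups were watered, and the labels give an age of 28 days at harvest. The labels call the samples biological replicates, and the number of plants behind each was not given in the sources used here. The comparisons ask how the genotype, the drought and both together changed the transcript levels of these genes.

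Each sample held 18610736 to 22817390 counts on genes, and no pair of replicates agreed within sampling noise. *BRL3* averaged 2854 CPM (read counts scaled to the normalized library size) in *BRL3ox* drought roots, against 61.4 CPM in WT drought roots, and had 974 and 1652 CPM in the *BRL3ox* control samples, against an average of 62.0 CPM in WT control roots. A set of 8 root genes was detected in all 11 samples and summed to 2739 to 3920 CPM, of which *PYK10* alone gave 1993 to 3554 CPM. A set of 10 leaf photosynthesis genes summed to 10.1 to 334 CPM, with the highest sum in WT control replicate 2 and up to 3 of the 10 genes at 0 counts in a sample. A filter on low counts kept 20718 genes, among them 42 of the 44 members. *IAA29* and *IAA31*, at 1 to 15 counts per sample, were not tested. In whole roots, fewer cells of a type and less RNA per cell cannot be told apart.

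Auxin acts by removing repressors. Aux/IAA proteins are short-lived repressors that sit on ARF transcription factors at auxin-responsive genes and recruit TOPLESS corepressors. Auxin joins an F-box receptor (*TIR1* or an AFB protein) to a short degron of the Aux/IAA protein, which is then ubiquitinated and degraded, and the ARF is set free. Many Aux/IAA genes are themselves targets of ARF proteins, which closes a feedback loop, and in roots the system controls lateral root initiation, gravitropism and root hair growth.

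The degron core, a glycine, a tryptophan and a pair of prolines, was looked for in the annotated proteins of the Aux/IAA genes. It was found in 23 of the 29. *IAA20*, *IAA30*, *IAA31*, *IAA32*, *IAA33* and *IAA34*, the non-canonical members, lacked it. The coding sequences below, read from TAIR10.1, are shown because they carry the codons on which auxin-dependent turnover rests, for the member called between the genotypes (*IAA19*, chr3:5264310-5264336, plus strand), the member called for the interaction (*IAA16*, chr3:1289730-1289756, minus strand), a member that rose with drought in WT (*IAA28*, chr5:9033815-9033841, plus strand) and the most abundant member (*IAA9*, chr5:26255107-26255133, plus strand). Capitals mark the core and the codon after it.
IAA19: gtggtgGGGTGGCCACCGGTTtgttct
IAA16: gttgtgGGATGGCCACCGGTAcgatct
IAA28: gtggtgGGATGGCCGCCGGTGagatca
IAA9: attgtcGGTTGGCCTCCAGTGagatcc

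Promoters, taken as 250 bases before to 50 after the annotated start of a gene, were searched on both strands for the auxin response element TGTCTC and its variant TGTCGG, and for the letters CACGTG (G-box), CGTGTG and CGTGCG, which factors of the brassinosteroid pathway are known to bind. CACGTG and CGTGTG can overlap each other. TGTCTC was in 12 of 29 Aux/IAA promoters (41.4%), in 1 of 15 ARF promoters (6.67%) and in 14.2% of 27443 promoters of protein-coding genes. TGTCGG was in 20.7% of Aux/IAA promoters, in 13.3% of ARF promoters and in 5.12% of all promoters. CACGTG was in 5 Aux/IAA promoters (17.2%, against 7.68% of all), CGTGTG in 6 (20.7%, against 6.52% of all) and CGTGCG in 0 (1.96% of all). The *IAA19* promoter held the most matches of any member, with 3 copies of TGTCTC, 1 of CACGTG and 1 of CGTGTG, and its 250 bases before the start (chr3:5263751-5264000, plus strand) are given with the matches in capitals. A match is a description of the letters and not of binding.
IAA19 promoter: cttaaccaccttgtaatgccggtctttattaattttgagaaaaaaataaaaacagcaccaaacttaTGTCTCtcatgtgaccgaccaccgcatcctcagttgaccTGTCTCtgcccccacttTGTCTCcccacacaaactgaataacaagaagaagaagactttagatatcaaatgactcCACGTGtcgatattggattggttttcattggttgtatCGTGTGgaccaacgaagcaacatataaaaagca

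The third set of sequences concerns ARF transcripts that microRNAs cleave. The mature miR160 sequence is the same from its 3 loci, *MIR160A*, *MIR160B* and *MIR160C*. Sites with at most 4 mismatches to it were found in the coding sequences of *ARF17* (chr1:29274189-29274209, plus strand, 1 mismatch), *ARF10* (chr2:12115741-12115761, plus strand, 2 mismatches) and *ARF16* (chr4:14704141-14704161, minus strand, 3 mismatches). They are shown because these 3 genes are described together below. Capitals mark the seed in miR160 and, in the sites, the bases that pair with miR160.
miR160: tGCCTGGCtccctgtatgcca
ARF17 site: TGGCATgCAGGGAGCCAGGCA
ARF10 site: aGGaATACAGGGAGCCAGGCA
ARF16 site: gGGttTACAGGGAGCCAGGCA
Sites for miR167 were in *ARF6* (4 mismatches) and *ARF8* (3 mismatches), and sites for miR393 in the receptors *TIR1*, *AFB1*, *AFB2* and *AFB3*.

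Levels were compared between genes per kilobase of exon. The Aux/IAA family spanned 276 CPM per kilobase for *IAA9* to 0.2402 CPM per kilobase for *IAA29*, as means of the 11 samples. *IAA9*, *IAA27* (140 CPM per kilobase) and *IAA8* (103 CPM per kilobase) led the family, and *IAA9* alone took 29.2% to 40.6% of the Aux/IAA counts of a sample. The degron classes were also set side by side in CPM not divided by exon length. The 6 genes without the degron core averaged 0.263 to 2.66 CPM with a median of 0.551 CPM. The 23 genes with it averaged 0.308 to 590 CPM with a median of 21.7 CPM. Per kilobase, the genes without the core ran from 0.295 (*IAA31*) to 2.68 (*IAA30*), and those with it from 0.2402 to 276. The ARF family was flatter, from 82.4 CPM per kilobase for *ARF2* to 5.12 for *ARF17*, with *ARF9* (44.05) and *ARF1* (39.9) after *ARF2*. The ranges of *ARF9* (30.1 to 65.4 CPM per kilobase) and *ARF1* (32.2 to 47.3) overlapped, as did those of *IAA27* (84.4 to 169) and *IAA8* (97.3 to 113), whereas the lowest *IAA9* value (193) was above the highest of *IAA27*.

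**Figure D1:**
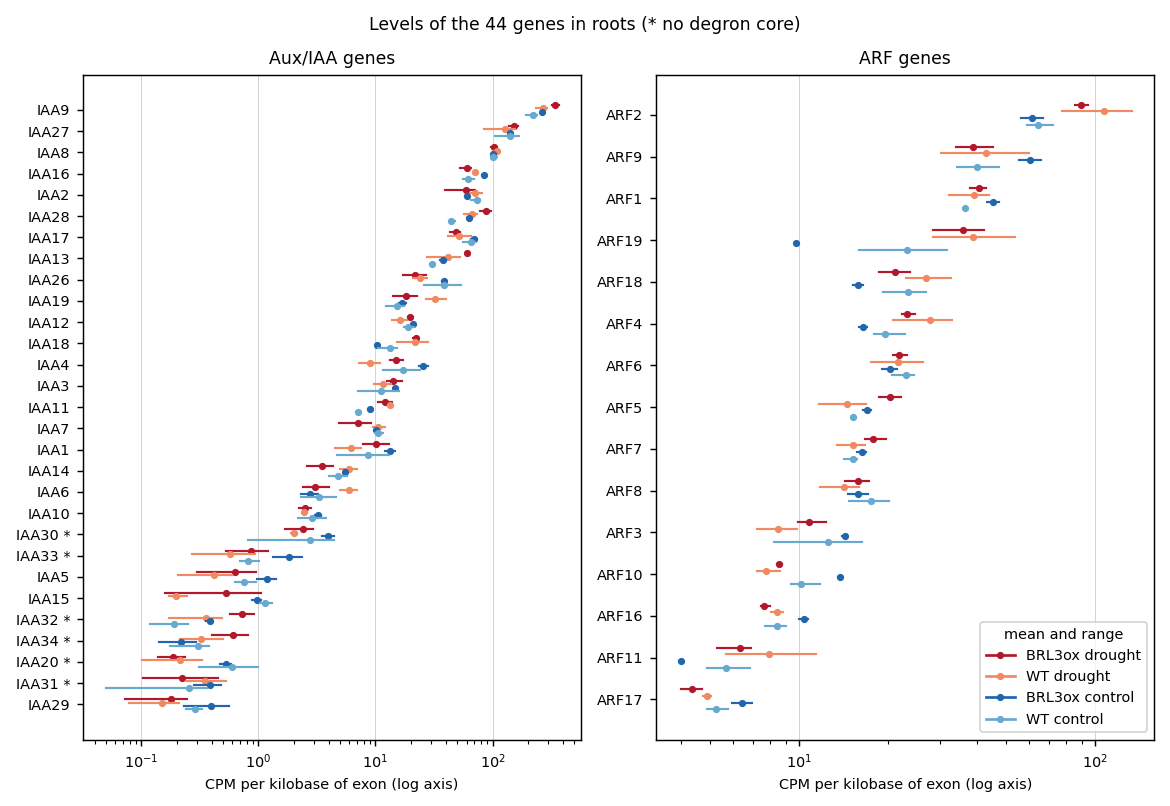
Levels of the 29 Aux/IAA genes (left) and 15 ARF genes (right) in CPM per kilobase of exon on a log axis, with a point for the mean and a line for the range of each of the 4 groups, genes in order of their mean over the 11 samples. *IAA9* stood above the other Aux/IAA genes, *ARF2* above the other ARF genes, and the genes without the degron core (asterisks) were in the lower part of the family.

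*IAA9* (AT5G65670, chr5:26253408-26256544, 6 exons in TAIR10.1), which restrains auxin responses in leaf and vascular development, had 782, 733 and 689 CPM in *BRL3ox* drought roots, against 498, 628 and 596 CPM in WT drought roots. In control conditions it had 576 and 562 CPM in *BRL3ox* roots, against 509, 508 and 412 CPM in WT roots. The *BRL3ox* values were above all WT values in both conditions, with a log2 fold change of 0.36 in drought (SE 0.12, adjusted p = 0.113) and 0.26 in control (SE 0.13, adjusted p = 0.392), neither of which passed the test. *IAA27* had 215, 235 and 200.1 CPM in *BRL3ox* drought roots, against 121, 222 and 203 CPM in WT drought roots, and 202 and 201 CPM in *BRL3ox* control roots, against 218, 242 and 151 CPM in WT control roots. *IAA8* had 218, 217 and 201 CPM in *BRL3ox* drought roots, against 209, 233 and 225 CPM in WT drought roots, and 207 and 204 CPM in *BRL3ox* control roots, against 200.2, 222 and 203 CPM in WT control roots. Both genes, like *IAA9* repressors with broad expression, overlapped between the groups in each of the 4 pairwise comparisons. *ARF9*, a repressor-type ARF, had 101, 110.4 and 136 CPM in *BRL3ox* drought roots, against 90.1, 114 and 180 CPM in WT drought roots, and 166 and 196 CPM in *BRL3ox* control roots, against 102, 116 and 142 CPM in WT control roots. *ARF1*, which binds auxin response elements and represses, had 97.9, 107 and 111 CPM in *BRL3ox* drought roots, against 83.7, 107 and 114 CPM in WT drought roots, and 112 and 123 CPM in *BRL3ox* control roots, against 95.0, 94.6 and 93.6 CPM in WT control roots. Both genes overlapped between the genotypes in drought, and in control their *BRL3ox* samples were above the WT samples. In the main fit (all samples, low counts filtered, no block for the replicate number), neither was called by edgeR's quasi-likelihood test in any comparison. *ARF9* was called with drought in *BRL3ox* roots without WT drought replicate 3, with a block for the replicate number and in the fit of only the 2 groups compared.

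In drought, 1 of the 42 tested members differed between the genotypes at an FDR under 0.05 and a fold change over 1.5, the repressor gene *IAA19*, which was at the lower level in *BRL3ox*. Over all 20718 genes tested, 3.51% were called (2.12% lower). The median log2 fold change was 0.02 over the members and -0.00 over all genes. All *BRL3ox* samples lay above all WT samples for 9 members and below them for 7, where 14.0% of all genes lay above and another 14.0% below. With 1 sample left out, the count of members was 0 without WT drought replicate 1 or 3, *BRL3ox* drought replicate 1 or 2, WT control replicate 1 or *BRL3ox* control replicate 1 or 3, it was 1 without WT drought replicate 2 (*ARF5* in place of *IAA19*), 2 without WT control replicate 2, 3 without *BRL3ox* drought replicate 3 and 4 without WT control replicate 3.

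In control conditions, 0 of the 42 members were called by edgeR's quasi-likelihood test between *BRL3ox* and WT roots, where 0.772% of all genes were. At an unadjusted p under 0.05 there were 12 members, where 3305 of all 20718 genes were. The likelihood ratio test of edgeR and DESeq2 each called 1 member, *ARF19*. The median log2 fold change was 0.16 over the members and -0.00 over all genes, and 15 members had both *BRL3ox* samples above all WT samples (18.2% of all genes) while 6 had them below (18.8% of all genes). The count was 2 (*IAA4* and *ARF19*) without WT control replicate 2 and 0 without any other sample.

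More members were called with drought than between the genotypes. In *BRL3ox* roots, 4 of 42 were called against the watered control, where 16.1% of all genes were. *IAA13*, *IAA18* and *ARF19* rose (9.14% of all genes) and *ARF10* fell (6.98% of all genes). In WT roots, 7 of 42 were called, where 12.4% of all genes were. *IAA11*, *IAA18*, *IAA19*, *IAA28* and *ARF2* rose (7.54% of all genes) and *IAA4* and *IAA15* fell (4.84% of all genes). In *BRL3ox* roots, 13 members had all drought samples above the control samples (27.6% of all genes) and 17 had them below (28.9% of all genes). In WT roots, these counts were 6 (17.2% of all genes) and 4 (17.2% of all genes). The median log2 fold change over the members was -0.03 in *BRL3ox* roots and 0.01 in WT roots, against -0.02 over all genes in both. The count in *BRL3ox* roots was 7 without WT control replicate 3 and 2 without *BRL3ox* control replicate 3. The count in WT roots was 13 without WT control replicate 3 and 3 without WT drought replicate 2, WT drought replicate 3 or WT control replicate 2.

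Root markers moved with drought beside these members. *SKOR*, a potassium channel gene of the stele, the central tissue of the root, had 8.65, 25.2 and 8.88 CPM in *BRL3ox* drought roots, against 73.3 and 71.9 CPM in *BRL3ox* control roots, and 9.79, 4.73 and 3.02 CPM in WT drought roots, against 57.4, 72.4 and 44.8 CPM in WT control roots. *SKOR* fell in both genotypes (log2 fold change -2.35, adjusted p = 0.00706 in *BRL3ox* and -3.31, adjusted p = 0.00187 in WT), and so did *PHO1*, a phosphate exporter gene of the stele (-0.90, adjusted p = 0.00555 in *BRL3ox* and -0.98, adjusted p = 0.00319 in WT). In *BRL3ox* roots the Casparian strip genes *CASP1* (-0.88, adjusted p = 0.0203) and *CASP2* (-0.93, adjusted p = 0.0128) fell as well. Of the 8 markers, 4 were thus called lower in *BRL3ox* roots (6.98% of all genes) and 2 in WT roots (4.84% of all genes), none at 0 counts. The list summed to 2965 to 3920 CPM in *BRL3ox* drought roots, against 3034 and 3207 CPM in *BRL3ox* control roots, and to 2886 to 3917 CPM in WT drought roots, against 2739 to 3665 CPM in WT control roots. The part of these cells in the drought responses of the members was not tested.

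The interaction, the log2 response to drought in *BRL3ox* roots minus that in WT roots, was called at an unadjusted p under 0.0025, the threshold of the study's methods. It passed for 1 of 42 members, *IAA16*, where it passed for 0.951% of all genes (0.603% below 0). At an FDR under 0.05 it passed for 0 members. The count was 0 without WT drought replicate 2 or 3, *BRL3ox* drought replicate 1, WT control replicate 1 or 3 or *BRL3ox* control replicate 1 or 3, and 2 without *BRL3ox* drought replicate 3. For the other members, a call with drought in one genotype and not in the other was not shown by this test to be a difference between them.

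**Figure D2:**
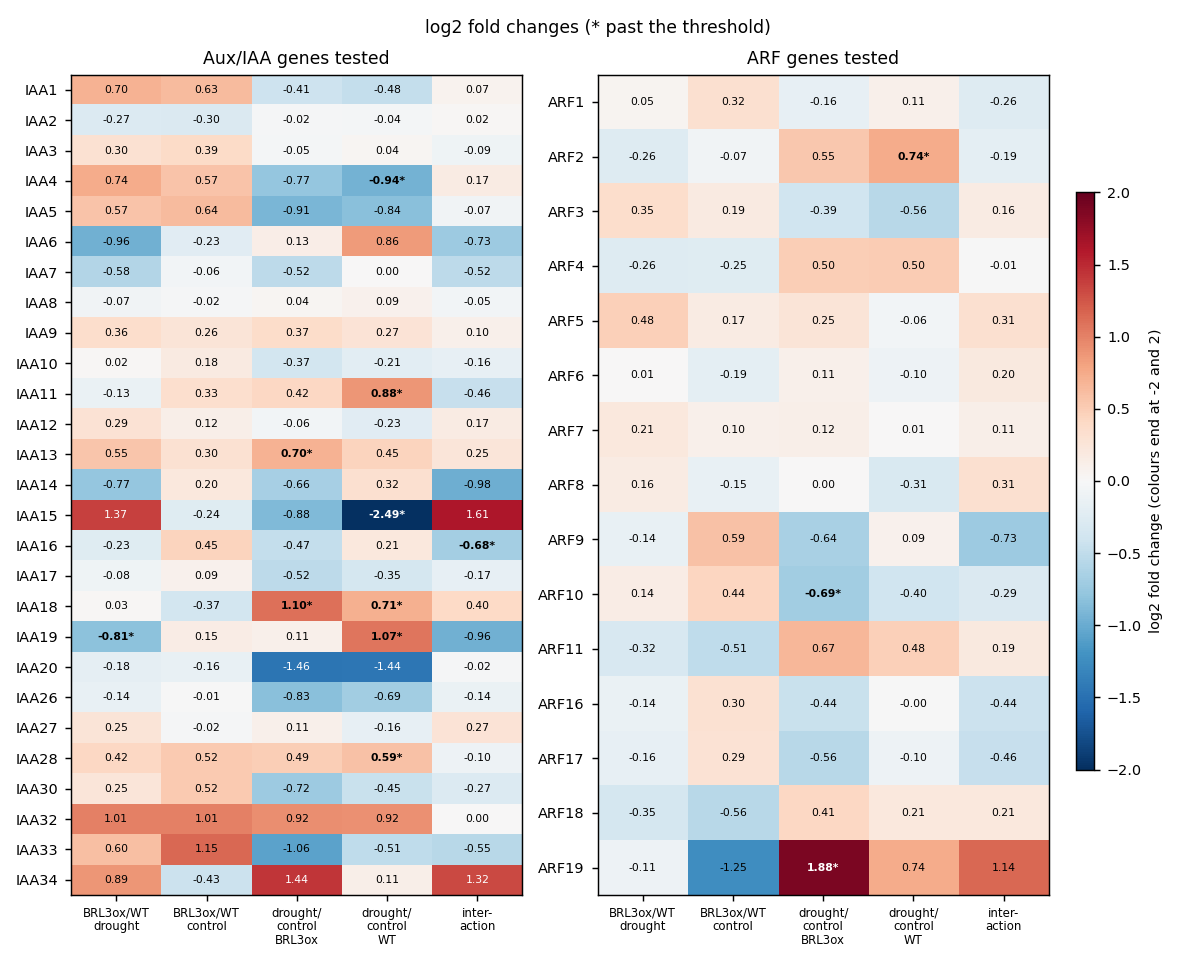
The log2 fold changes of the 27 tested Aux/IAA genes (left) and 15 ARF genes (right) in the 5 comparisons, printed in each cell, with colours that end at -2 and 2 and an asterisk on values past the threshold. The asterisks number 1, 0, 4, 7 and 1 from left to right, and the strongest cells are *IAA15* in WT (-2.49) and *ARF19* in *BRL3ox* roots (1.88).

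Across the 42 members, the drought responses of the genotypes, which share no sample, had the same sign for 32 members (76.2%) with Pearson's r of 0.70 and Spearman's rho of 0.79. Over all genes tested the sign was shared by 74.0% and r was 0.75. These are descriptions across genes, which are not independent replicates and whose values share the libraries of each group.

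**Figure D3:**
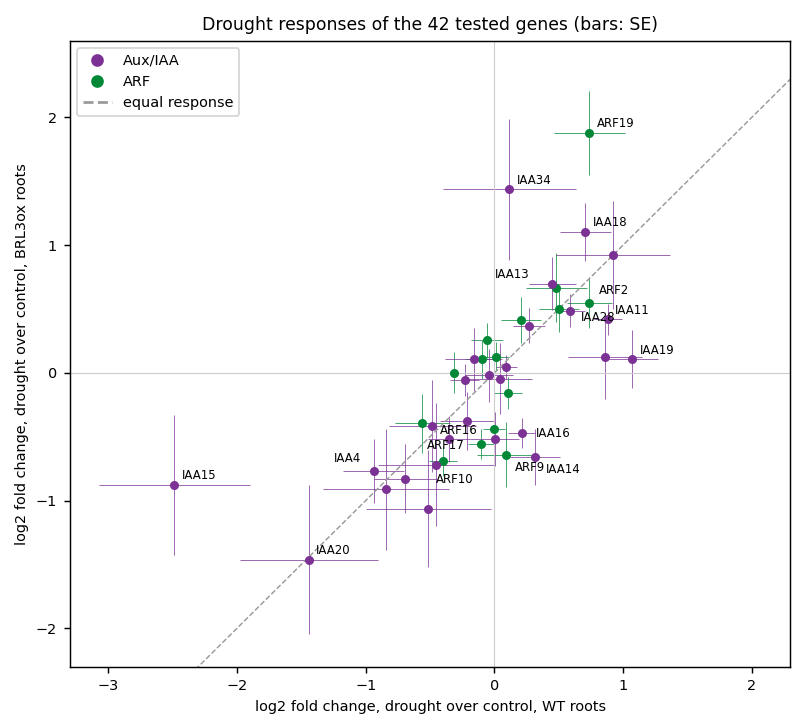
The log2 fold change with drought of each of the 42 tested genes in *BRL3ox* roots (vertical) against that in WT roots (horizontal), with bars of 1 SE and a dashed line for equal responses. *ARF19* lies above the line and *IAA19*, *IAA14* and *IAA16* below it.

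Among the Aux/IAA repressors, *IAA19* (AT3G15540, chr3:5264001-5265695, 3 exons) is an auxin-induced gene known for hypocotyl tropisms and stamen growth. It had 18.6, 14.3 and 22.6 CPM in *BRL3ox* drought roots, against 27.3, 29.98 and 40.4 CPM in WT drought roots. In control conditions it had 15.9 and 18.4 CPM in *BRL3ox* roots, against 17.6, 12.3 and 16.6 CPM in WT roots. The 3 WT drought samples thus stood apart from the other 8. The genotype difference of *IAA19* in drought passed the test (log2 *BRL3ox* over WT -0.81, SE 0.20, adjusted p = 0.0463). *IAA19* rose with drought in WT roots (1.07, SE 0.20, adjusted p = 0.00607), and its log2 fold change with drought was 0.11 in *BRL3ox* roots (SE 0.23, adjusted p = 0.769). The interaction was -0.96 (SE 0.30, unadjusted p = 0.00885, adjusted p = 0.325), short of the threshold in the main fit. With a block for the replicate number the interaction was called. The rise in WT held without any 1 sample, at log2 fold changes of 0.89 to 1.18. The genotype difference held only without *BRL3ox* drought replicate 3, WT control replicate 2 or WT control replicate 3, and without each of the other 8 samples it was -0.93 to -0.63 with adjusted p = 0.0556 to 0.166.

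Root markers differed beside *IAA19*, among them genes of the endodermis, the inner barrier layer of the root. *CASP1*, a Casparian strip protein gene, had 33.6, 25.1 and 40.1 CPM in *BRL3ox* drought roots, against 75.5, 52.3 and 57.2 CPM in WT drought roots (log2 fold change -0.91, adjusted p = 0.0383), and *CASP2* differed by -0.95 (adjusted p = 0.0284). They were the 2 of the 8 root genes of the marker list that were called, both lower, where 2.12% of all genes were called lower. Among those not called, *COBL9*, a root hair marker in the paper, had 7.34 to 12.6 CPM in *BRL3ox* drought roots, against 16.6 to 20.5 CPM in WT. *LRX1* had 6.64 to 16.6 CPM, against 14.9 to 24.4 CPM. *PHO1* and *SKOR* averaged higher in *BRL3ox* drought roots (345 and 14.2 CPM) than in WT (266.5 and 5.85 CPM). The list summed to 2965 to 3920 CPM in *BRL3ox* drought roots, against 2886 to 3917 CPM in WT drought roots, with no marker at 0 counts. The part of the cells that these genes mark in the *IAA19* result was not tested.

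*IAA16* (AT3G04730, chr3:1288155-1290891, 5 exons), whose stabilized forms dampen auxin responses, was the member called for the interaction. It had 106, 132 and 129 CPM in *BRL3ox* drought roots, against 144 CPM in each of the 3 WT drought samples. In control conditions it had 165 and 175 CPM in *BRL3ox* roots, against 121, 139 and 112 CPM in WT roots. The order of the genotypes was thus turned round between the conditions, with no overlap in either. The log2 fold change with drought was -0.47 in *BRL3ox* roots (SE 0.12, adjusted p = 0.0168) and 0.21 in WT roots (SE 0.11, adjusted p = 0.191), and the interaction was -0.68 (SE 0.16, unadjusted p = 0.00134, adjusted p = 0.221). Without WT drought replicate 2 or 3, *BRL3ox* drought replicate 1, WT control replicate 1 or 3 or *BRL3ox* control replicate 1 or 3 it was -0.72 to -0.59 with an unadjusted p of 0.00252 to 0.00830, above the threshold.

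*IAA14*, the repressor known from the solitary root mutant, which makes no lateral roots, was also below WT in *BRL3ox* drought roots. It was not called by edgeR's quasi-likelihood test in the main fit. DESeq2 and the likelihood ratio test called it between the genotypes in drought and with drought in *BRL3ox* roots. The likelihood ratio test also called it for the interaction, and the quasi-likelihood test with the replicate block called it between the genotypes in drought. The quasi-likelihood test called it between the genotypes in drought without *BRL3ox* drought replicate 3 or WT control replicate 3, with drought in *BRL3ox* roots without either of them, and for the interaction without *BRL3ox* drought replicate 3. It had 6.67, 4.89 and 8.23 CPM in *BRL3ox* drought roots, against 11.3, 9.46 and 13.1 CPM in WT drought roots, and 10.7 and 10.1 CPM in *BRL3ox* control roots, against 7.56, 8.94 and 10.7 CPM in WT control roots. The genotypes did not overlap in drought (log2 fold change -0.77, SE 0.20, adjusted p = 0.0542), the log2 fold change with drought was -0.66 in *BRL3ox* roots (adjusted p = 0.0548) and 0.32 in WT roots (adjusted p = 0.292), and the interaction was -0.98 (SE 0.30, unadjusted p = 0.00745, adjusted p = 0.318). *IAA14* is named here because of these values, which were seen first.

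*IAA18* (AT1G51950, chr1:19305081-19307518, 5 exons) and *IAA28* (AT5G25890, chr5:9033204-9035140, 4 exons) are repressors with known parts in the root, *IAA28* in the founder cells of lateral roots and *IAA18* in their initiation. *IAA18* had 37.2, 39.4 and 41.1 CPM in *BRL3ox* drought roots, against 18.0 and 18.6 CPM in *BRL3ox* control roots, and 27.3, 49.98 and 38.2 CPM in WT drought roots, against 27.3, 18.7 and 24.7 CPM in WT control roots. It rose with drought in both genotypes (log2 fold change 1.103, SE 0.23, adjusted p = 0.00736 in *BRL3ox* and 0.71, SE 0.20, adjusted p = 0.0315 in WT), with groups that met at 27.3 CPM in WT only. The rise was not called in *BRL3ox* without control replicate 1 (1.08, adjusted p = 0.0701) or 3 (1.13, adjusted p = 0.0598) of that genotype. In WT it was not called without WT drought replicate 2 or 3, WT control replicate 2 or *BRL3ox* control replicate 1 or 3 (0.47 to 0.71, adjusted p = 0.0503 to 0.113). *IAA28* had 135, 126 and 108 CPM in *BRL3ox* drought roots, against 94.3, 80.0 and 102 CPM in WT drought roots, and 84.1 and 91.5 CPM in *BRL3ox* control roots, against 58.6, 58.6 and 66.8 CPM in WT control roots. It stood higher in *BRL3ox* than in WT in every sample of each condition, by a log2 fold change of 0.42 in drought (SE 0.11, adjusted p = 0.0614) and 0.52 in control (SE 0.13, adjusted p = 0.0799), which did not pass the test. Its rise with drought was 0.59 in WT (SE 0.11, adjusted p = 0.00705) and its log2 fold change 0.49 in *BRL3ox* (SE 0.13, adjusted p = 0.0222), on either side of the fold threshold of 1.5. The WT value fell under that threshold (0.51 to 0.58, adjusted p = 0.0105 to 0.0311) without WT drought replicate 1 or 3, *BRL3ox* drought replicate 2, WT control replicate 1 or 2 or *BRL3ox* control replicate 1 or 3.

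*IAA11* (AT4G28640, chr4:14142063-14143969, 5 exons) and *IAA13* (AT2G33310, chr2:14113025-14116089, 4 exons) belong with *IAA12* to the branch that restrains *ARF5* in embryo and vascular patterning. *IAA11* had 17.6, 14.8 and 13.5 CPM in *BRL3ox* drought roots, against 11.9 and 11.01 CPM in *BRL3ox* control roots, and 16.2, 17.1 and 16.8 CPM in WT drought roots, against 8.61, 9.34 and 9.26 CPM in WT control roots. All drought samples were above all control samples in both genotypes. The log2 fold change was 0.88 in WT (SE 0.11, adjusted p = 0.000887), which held without any 1 sample (0.84 to 0.91), and 0.42 in *BRL3ox* (SE 0.12, adjusted p = 0.0343), under the fold threshold. *IAA13* had 137, 139 and 131 CPM in *BRL3ox* drought roots, against 78.5 and 88.5 CPM in *BRL3ox* control roots, and 61.7, 99.3 and 117 CPM in WT drought roots, against 65.8, 71.1 and 66.5 CPM in WT control roots. It rose in *BRL3ox* roots (0.70, SE 0.21, adjusted p = 0.0348), and its log2 fold change in WT was 0.45 (SE 0.18, adjusted p = 0.110), where the WT drought samples were spread and overlapped the control. The call in *BRL3ox* was lost without any of its 5 samples or WT control replicate 1 (0.62 to 0.79, adjusted p = 0.0553 to 0.216).

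*IAA4* (AT5G43700, chr5:17550179-17551715, 3 exons) and *IAA15* (AT1G80390, chr1:30221629-30222769, 3 exons) were the repressor genes that fell with drought in WT roots. *IAA4* is an auxin-induced gene of the group of *IAA1* to *IAA4*, and it had 14.7, 12.2 and 9.88 CPM in WT drought roots, against 22.3, 32.2 and 15.8 CPM in watered WT roots. In *BRL3ox* it had 18.0, 23.4 and 19.96 CPM in drought, against 37.9 and 31.8 CPM in control. The groups did not overlap in either genotype (log2 fold change -0.94, SE 0.24, adjusted p = 0.0218 in WT and -0.77, SE 0.25, adjusted p = 0.0533 in *BRL3ox*). The WT call was lost without WT drought replicate 2 or 3 or WT control replicate 2 (-0.94 to -0.63, adjusted p = 0.0641 to 0.0817). *IAA15* was near the detection limit. It had 3, 3 and 4 raw counts in WT drought roots, against 17, 22 and 21 in watered WT roots. In *BRL3ox* it had 7, 20 and 3 in drought, against 16 and 22 in control. It fell in WT (log2 fold change -2.49, SE 0.59, adjusted p = 0.0160), and in *BRL3ox*, where 1 drought sample was as high as the control, the log2 fold change was -0.88 (SE 0.55, adjusted p = 0.282). The WT call was lost without WT drought replicate 2 (-2.42, adjusted p = 0.0559).

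**Figure D4:**
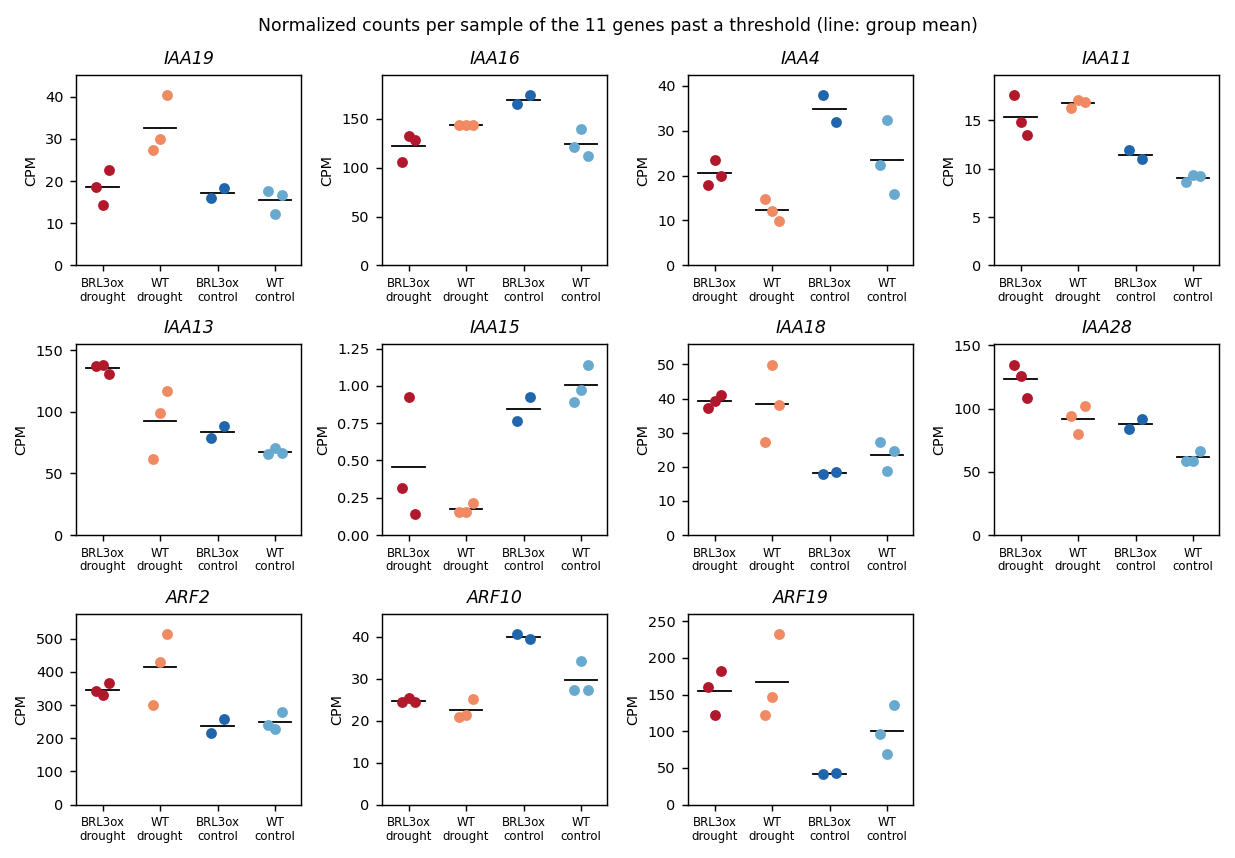
Normalized counts (CPM) of each sample for the 11 genes past a threshold in at least 1 comparison, with points for samples, lines for group means and axes that start at 0. The 3 WT drought samples of *IAA19* lie at 27.3 to 40.4 CPM above all other samples, and the *BRL3ox* control samples of *ARF19* at 41.97 and 42.4 CPM below all others.

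In the main fit, the 15 other tested Aux/IAA genes were not called by edgeR's quasi-likelihood test in any comparison. In some alternative fits of this test, *IAA5*, *IAA6*, *IAA7*, *IAA26* and *IAA30* were called. At an unadjusted p under 0.05 in the main fit, 4 of the 15 passed between the genotypes in drought (4794 of all 20718 genes) and 1 in control (3305 of all genes). With drought, 6 passed in *BRL3ox* roots (7282 of all genes) and 3 in WT roots (6964 of all genes). *IAA6*, a close relative of *IAA19*, was the lowest of all members in the genotype comparison in drought, with 3.47, 2.08 and 2.24 CPM in *BRL3ox* drought roots, against 4.29, 4.99 and 5.94 CPM in WT drought roots, and 1.96 and 2.78 CPM in *BRL3ox* control roots, against 2.52, 1.99 and 3.92 CPM in WT control roots. As for *IAA19*, the WT drought samples were above the other 8, but in the main fit neither the genotype difference in drought (log2 fold change -0.96, SE 0.29, adjusted p = 0.0790) nor the change with drought in WT (0.86, SE 0.29, adjusted p = 0.0612) passed edgeR's quasi-likelihood test. DESeq2 and the likelihood ratio test called both, and so did the quasi-likelihood test without WT control replicate 3. *IAA6* was singled out after its values had been seen.

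Among the ARF activators (*ARF5*, *ARF6*, *ARF7*, *ARF8* and *ARF19*), which carry a glutamine-rich middle region, *ARF19* changed. *ARF19* (AT1G19220, chr1:6627683-6633133, 12 exons) acts with *ARF7* in lateral root formation by inducing *LBD* genes. It had 161, 123 and 182 CPM in *BRL3ox* drought roots, against 122, 147 and 233 CPM in WT drought roots, and 41.97 and 42.4 CPM in *BRL3ox* control roots, against 95.7, 69.0 and 136 CPM in WT control roots. The *BRL3ox* control samples were below every other sample. *ARF19* rose with drought in *BRL3ox* roots (log2 fold change 1.88, SE 0.33, adjusted p = 0.00358), and the call held without any 1 sample, at 1.75 to 2.03. In WT roots the log2 fold change was 0.74 (SE 0.28, adjusted p = 0.0880) with overlapping groups. It was -1.25 between *BRL3ox* and WT in control (SE 0.32, adjusted p = 0.0915), and the interaction was 1.14 (SE 0.42, unadjusted p = 0.0202, adjusted p = 0.385). Neither was called in the main fit, and both were called with a block for the replicate number. *ARF7*, its closest partner, lay between 59.4 and 87.0 CPM over all 11 samples, with log2 fold changes with drought of 0.12 in *BRL3ox* and 0.01 in WT roots. All 5 activators had a fitted log2 fold change above 0 with drought in *BRL3ox* roots, as had 10022 of all 20718 genes. The values of the activators were 0.00 to 1.88, and *ARF19* was the 1 that passed the test. The 95% intervals of *ARF5*, *ARF6*, *ARF7* and *ARF8* spanned 0. *ARF5*, which patterns the embryo and vascular tissue, had the lowest adjusted p between the genotypes in drought after *IAA19* but was also under the fold threshold, with 73.0, 79.9 and 67.04 CPM in *BRL3ox* roots, against 42.1, 61.0 and 54.7 CPM in WT roots (log2 fold change 0.48, SE 0.12, adjusted p = 0.0535). These groups did not overlap. *ARF5* and *ARF7* are given because of these values.

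Genes of touch and wounding moved beside *ARF19*. The 6 genes of that list summed to 4423 to 4682 CPM in *BRL3ox* drought roots, against 1708 and 2142 CPM in *BRL3ox* control roots, and to 4380 to 6029 CPM in WT drought roots, against 2222 to 4279 CPM in WT control roots, and none was at 0 counts. With drought in *BRL3ox* roots, 3 of the 6 were called, all higher (*TCH4*, *WRKY40* and *JAZ10*), where 9.14% of all genes were, and with drought in WT roots 2 of 6 were (*TCH4* and *JAZ10*), where 7.54% of all genes were. Between *BRL3ox* and WT in control 1 of 6 was called, *JAZ10* (log2 fold change -2.09, adjusted p = 0.0329), where 0.772% of all genes were. The part of handling or wounding in the *ARF19* result was not tested. In the TAIR10.1 annotation *ARF19* and *IAA34* also overlap a gene on their own strand, and *IAA3*, *IAA5*, *IAA9*, *IAA10*, *IAA11*, *IAA13*, *IAA27*, *IAA32*, *ARF1*, *ARF5* and *ARF7* overlap a gene on the other strand. The kit kept strand, but the strand setting of the counting was not given in the sources used here, so reads of these genes and their overlapping partners may not be told apart.

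The repressor class around *ARF1* and *ARF2* (*ARF1*, *ARF2*, *ARF3*, *ARF4*, *ARF9*, *ARF11* and *ARF18*) had 1 call. *ARF2* (AT5G62000, chr5:24910191-24915395, 15 exons), which restrains cell division and organ size and is linked to brassinosteroid signalling, had 299, 431 and 514 CPM in WT drought roots, against 239, 227 and 279 CPM in watered WT roots. In *BRL3ox* it had 344, 331 and 366 CPM in drought, against 217 and 258 CPM in control. Drought and control samples did not overlap in either genotype. *ARF2* rose in WT (log2 fold change 0.74, SE 0.18, adjusted p = 0.0165), and its log2 fold change in *BRL3ox* was 0.55 (SE 0.20, adjusted p = 0.0744). The WT call was lost without WT drought replicate 2 or 3 or WT control replicate 1 or 2 (0.55 to 0.71, adjusted p = 0.0512 to 0.0622). Across the class, 6 of 7 fitted values with drought were above 0 in WT and 4 of 7 in *BRL3ox*. Of all 20718 genes, 9815 were above 0 in WT and 10022 in *BRL3ox*.

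The 3 genes with a miR160 site, *ARF10* (AT2G28350, chr2:12113889-12116957, 4 exons), *ARF16* (AT4G30080, chr4:14703065-14706354, 4 exons) and *ARF17* (AT1G77850, chr1:29272074-29275507, 2 exons), form the third ARF class, and all were lower in drought than in control *BRL3ox* roots at an FDR under 0.05. *ARF10* and *ARF16* act in root cap development, and forms of *ARF10* or *ARF17* that resist miR160 disturb growth. *ARF10* had 24.4, 25.5 and 24.4 CPM in *BRL3ox* drought roots, against 40.6 and 39.4 CPM in *BRL3ox* control roots, and 20.9, 21.2 and 25.1 CPM in WT drought roots, against 27.3, 34.2 and 27.2 CPM in WT control roots. It fell in *BRL3ox* roots (log2 fold change -0.69, SE 0.12, adjusted p = 0.00294), also without any 1 sample (-0.71 to -0.67), and differed by -0.40 in WT (SE 0.11, adjusted p = 0.0273), under the fold threshold. *ARF16* had 18.9, 18.6 and 20.1 CPM in *BRL3ox* drought roots, against 27.0 and 25.1 CPM in *BRL3ox* control roots, and 22.2, 20.8 and 20.3 CPM in WT drought roots, against 19.3, 21.4 and 22.8 CPM in WT control roots. *ARF17* had 11.9, 13.9 and 13.0 CPM in *BRL3ox* drought roots, against 17.6 and 20.5 CPM in *BRL3ox* control roots, and 14.98, 14.4 and 14.04 CPM in WT drought roots, against 14.5, 17.003 and 15.03 CPM in WT control roots. In *BRL3ox* roots the drought samples of all 3 genes were below the control samples, as for 17 of the 42 members and 28.9% of all genes. In WT roots the drought and control samples of *ARF16* and *ARF17* overlapped.

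In *BRL3ox* roots *ARF16* and *ARF17*, given in full after their values had been seen, passed the FDR but not the fold threshold (log2 fold change -0.44, SE 0.10, adjusted p = 0.00939 for *ARF16* and -0.56, SE 0.11, adjusted p = 0.00724 for *ARF17*), where 9.49% of all genes were lower at an FDR under 0.05 at any fold. In WT roots the values were -0.00 for *ARF16* (adjusted p = 0.982) and -0.10 for *ARF17* (adjusted p = 0.540). The interaction was -0.29 for *ARF10* (unadjusted p = 0.0950), -0.44 for *ARF16* (unadjusted p = 0.00649) and -0.46 for *ARF17* (unadjusted p = 0.0137), none of which passed 0.0025. In control conditions the 3 genes stood higher in *BRL3ox* than in WT roots in every sample, by log2 fold changes of 0.29 to 0.44 that did not pass the test (adjusted p = 0.1004 for *ARF10*, 0.152 for *ARF16* and 0.234 for *ARF17*). Both *BRL3ox* samples were above all WT samples there for 15 of the 42 members and for 18.2% of all genes.

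Reads on the *MIR160* precursors were few, and the mature microRNA was not measured. *MIR160C* had 6, 12 and 12 raw counts in *BRL3ox* drought roots, against 1, 2 and 0 in WT drought roots, and 1 and 2 in *BRL3ox* control roots, against 1 in each of the 3 WT control samples. All 3 *BRL3ox* drought samples were thus above the other 8. *MIR160A* and *MIR160B* summed to 9 and 3 counts over the 11 samples. The precursors were looked up after the ARF values had been seen, and no test is given for them. Between the genotypes in drought, *ARF10* (log2 fold change 0.14), *ARF16* (-0.14) and *ARF17* (-0.16) were not called, and their 95% intervals spanned 0. With drought in WT roots, *ARF10* differed by -0.40, where *MIR160C* had 0 to 2 counts. The part of miR160 in the ARF values was not tested.

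**Figure D5:**
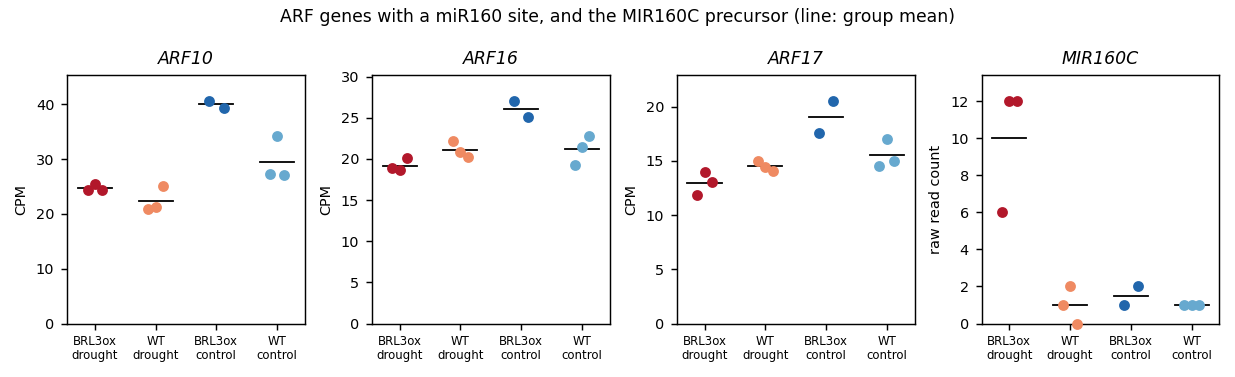
Normalized counts (CPM) of *ARF10*, *ARF16* and *ARF17* and raw read counts of the *MIR160C* precursor in each sample, with lines for group means and axes that start at 0. The *BRL3ox* control samples of the 3 ARF genes lie above the *BRL3ox* drought samples, and the *MIR160C* counts of *BRL3ox* drought roots (6 to 12) lie above those of the other groups (0 to 2).

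Partners of the pathway were taken from a list of 28 genes. The 6 auxin receptors had negative log2 fold changes with drought in both genotypes, -1.11 to -0.10 in *BRL3ox* and -0.69 to -0.18 in WT roots. Of all 20718 genes, 10696 were below 0 with drought in *BRL3ox* roots and 10903 in WT roots. In *BRL3ox* roots, 2 of 6 were called, both lower, where 6.98% of all genes were: *TIR1*, the first auxin receptor known, had 64.0, 87.0 and 74.3 CPM in drought, against 118 and 128 CPM in control (log2 fold change -0.71, SE 0.16, adjusted p = 0.0123), and *AFB2* had 21.2, 23.3 and 26.8 CPM in drought, against 52.4 and 50.002 CPM in control (-1.11, SE 0.16, adjusted p = 0.00158). In WT roots, 0 of 6 were called by edgeR's quasi-likelihood test, with 4 of 6 at an unadjusted p under 0.05 (6964 of all 20718 genes). *TIR1* differed there by -0.49 (adjusted p = 0.0431) and *AFB2* by -0.39 (adjusted p = 0.0935), and the interaction for *AFB2* was -0.72 (unadjusted p = 0.00778, adjusted p = 0.318). Between the genotypes 0 of 6 receptors were called in either condition. At an unadjusted p under 0.05 there were 2 of 6 in drought (4794 of all 20718 genes) and 1 of 6 in control (3305 of all genes).

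Of the enzymes that inactivate auxin, 9 of 10 were tested. They conjugate auxin to amino acids (*GH3*) or oxidise it (*DAO*), and 5 were called with drought in *BRL3ox* roots (16.1% of all genes) and 4 in WT roots (12.4% of all genes). *DAO1* and *DAO2*, the oxidases, rose in both (*DAO1* 0.85 in *BRL3ox* and 0.96 in WT, *DAO2* 1.38 in *BRL3ox* and 1.40 in WT, as log2 fold changes). *GH3.2* fell in both, to 2.21, 4.61 and 5.56 CPM in *BRL3ox* drought roots, against 18.0 and 18.6 CPM in control (-2.15, SE 0.31, adjusted p = 0.00144), and to 2.62, 2.49 and 3.996 CPM in WT drought roots, against 7.30, 7.79 and 5.94 CPM in control (-1.21, SE 0.30, adjusted p = 0.0200). *GH3.5* (-1.06) and *GH3.17* (-0.60) fell in *BRL3ox* roots and *GH3.6* (-0.98) in WT roots. Of the TOPLESS corepressors, 0 of 5 were called with drought in either genotype. At an unadjusted p under 0.05 there were 3 of 5 in *BRL3ox* roots (7282 of all 20718 genes) and 1 of 5 in WT roots (6964 of all genes). Of the lateral root genes downstream of *ARF7* and *ARF19*, 5 of 7 were tested and 0 were called with drought. At an unadjusted p under 0.05 there were 3 in *BRL3ox* and 1 in WT roots, beside the same shares of all genes as for the corepressors.

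As whole families, the Aux/IAA genes summed to 1839 to 1990 CPM in *BRL3ox* drought roots, against 1517 to 1836 CPM in WT drought roots, and to 1758 and 1764 CPM in *BRL3ox* control roots, against 1395 to 1736 CPM in WT control roots. *BRL3ox* sums were above WT sums in both conditions, in drought only by 1839 CPM for the lowest against 1836 CPM for the highest. *IAA9*, itself above WT in *BRL3ox* in both conditions, made up the largest share of each sum (29.2% to 40.6%). With *IAA9* taken off each sum, the other members together overlapped between the genotypes in both conditions. The ARF genes summed to 1227 to 1311 CPM in *BRL3ox* drought roots, against 1032 to 1614 CPM in WT drought roots, and to 1043 and 1121 CPM in *BRL3ox* control roots, against 1042 to 1164 CPM in WT control roots, with overlap between the genotypes in each condition.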

How the data were processed

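RNA was sequenced from roots as single-end reads on libraries made with a stranded mRNA kit. Per the submitters' processing notes, the authors checked reads with FastQC, aligned them to TAIR10 with HISAT2 2.1.0 and counted them per gene with HTSeq 0.9.1, without giving the strand setting or annotation release in the sources used here. The deposited values were raw counts, 1 file per sample, for 33341 genes and 5 summary classes, which held 10.5% to 12.9% of the reads and were left out. *BRL3ox* control replicate 2 is not analysed here.

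Counts were analysed with R 4.3.3, edgeR 4.0.16 (with limma 3.58.1) and, as an alternative, DESeq2 1.42.0. Genes were filtered by filterByExpr, scaled by TMM and fitted in a model of 4 groups over the 11 samples (7 residual degrees of freedom), and contrasts were tested by edgeR's quasi-likelihood F test with Benjamini-Hochberg adjustment over 20718 genes. SE is the log2 fold change over the square root of F. Genes were called at an adjusted p (FDR) under 0.05 and a fold change over 1.5, and interactions at an unadjusted p under 0.0025. The fits were also run on counts simulated from their own means and spread, as a check of the code. The outcome of that run is not given and is no measure of the calls made here. CPM used the TMM library sizes, and the level per kilobase was divided by the exon length in TAIR10.1. P-values cover the spread between these samples.

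The members, the lists of partners and markers, and the motifs were chosen with earlier results of these data known. Values of every sample are given for members called in at least 1 comparison and for the 3 members of each family with the highest level per kilobase, and partners are named with values where called. Sequences and positions are from TAIR10.1 with the RefSeq annotation, in which all 44 identifiers were found. Alternatives were RLE scaling, DESeq2, the likelihood ratio test, no filter, a replicate block, only the 2 groups compared, other thresholds, and each sample left out in turn.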

Additional observations from a re-analysis of the deposited data

Results flagged for a closer look

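The drought response of *IAA16* differed between the genotypes by the interaction term, the log2 response of *BRL3ox* roots minus that of WT roots, which was -0.68 (95% interval -1.03 to -0.33, SE 0.16, unadjusted p = 0.00134). Its log2 fold change with drought was -0.47 in *BRL3ox* roots and 0.21 in WT roots. The value did not pass at an FDR under 0.05 (adjusted p = 0.221 in edgeR's quasi-likelihood test), and without 1 sample it was -0.78 to -0.59.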

How the results depend on the processing

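Over the 13 named calls, 171 of 220 alternative values kept the call, 49 lost it and 0 changed sign, and RLE scaling changed no count of members. Between the genotypes in drought, the count of 1 member became 4 with DESeq2, 4 with the likelihood ratio test, 0 with only the 2 groups compared and 0 at a fold change over 2 (0 to 4 without 1 sample). In control conditions the count of 0 became 1 with DESeq2 and 1 with the likelihood ratio test (0 to 2 without 1 sample). With drought in *BRL3ox* roots the count of 4 became 7 with DESeq2, 7 with the likelihood ratio test, 8 with only the 2 groups compared, 2 at a fold change over 2 and 9 with no fold threshold (2 to 7 without 1 sample). In WT roots the count of 7 became 10 with DESeq2, 10 with the likelihood ratio test, 9 with no fold threshold, 3 with only the 2 groups compared and 2 at a fold change over 2 (3 to 13 without 1 sample). For the interaction the count of 1 became 2 with the likelihood ratio test and 0 at an FDR under 0.05 (0 to 2 without 1 sample). Over all genes tested, 728 were called between the genotypes in drought, against 1318 with DESeq2, 1414 with the likelihood ratio test and 1233 with the replicate block, and 160 in control conditions, against 856, 925 and 718 in that order, 306 without the filter and 2 with only the 2 groups compared. The cause of these shifts was not tested. Replicate numbers were not taken as pairs, since nothing in the labels ties same-numbered samples. Deviations of same-numbered samples correlated by 0.15 on average over 15 pairs (-0.09 to 0.41, 11 over 0.1 and 4 at 0.1 or less), against -0.07 over 30 other pairs. Deviations were taken from each group's mean, which ties the average of the other pairs to that of the same-numbered pairs. The -0.07 is therefore no independent baseline. As a hint from the data that numbers may mark something shared, 10 of 11 samples correlated best with their own number. With the replicate block the counts were 3, 2, 10, 9 and 3 in the order of the comparisons above, and those called for the interaction were *IAA16*, *IAA19* and *ARF19*. The 2 samples of *BRL3ox* control roots and counts near the filter, as for *IAA15*, limit these values.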

Other observations

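Among the Aux/IAA genes 3 pairs lie head to head as neighbours in TAIR10.1, with the first gene on the minus and the second on the plus strand. *IAA14* and *IAA1*, 10732 bases apart on chromosome 4, had log2 fold changes of -0.77 and 0.70 between *BRL3ox* and WT roots in drought. *IAA2* and *IAA7*, 12510 bases apart on chromosome 3, had -0.27 and -0.58 in the same comparison. *IAA3* and *IAA17*, 6388 bases apart on chromosome 1, had 0.30 and -0.08. In the main fit, none of these 6 genes was called in any comparison by edgeR's quasi-likelihood test.

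*TAS3*, the precursor of the small RNAs that target *ARF2*, *ARF3* and *ARF4*, summed to 269 raw counts in the 3 samples of *BRL3ox* drought roots, against 308 in the 3 of WT drought roots, and to 440 in the 2 of *BRL3ox* control roots, against 458 in the 3 of WT control roots. Per sample these were 80, 99 and 90 counts in *BRL3ox* drought roots and 216 and 224 in *BRL3ox* control roots. In WT roots the samples had 165, 64 and 79 counts in drought and 157, 199 and 102 in control, with overlap. *TAS3* was looked up after the ARF values had been seen and no test is given.

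Of the lateral root genes downstream of *ARF7* and *ARF19*, the 5 tested had interactions of -1.68 to -0.72, all below 0, as were 9978 of all 20718 genes. Of the 5, 0 passed an unadjusted p of 0.0025 or of 0.05 in edgeR's quasi-likelihood test. Their counts were low, such as 3 to 16 raw counts per sample for *GATA23*, 7 to 26 for *LBD29* and 14 to 83 for *LBD16*, which limits these values.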
